A study of Mus musculus with 6 samples.

Results

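DNA methylation was examined at 40 genes used as markers of blood and immune cells, in endothelial cells sorted from the lungs of wild-type mice. The genes were taken by name from lists for 5 classes of leukocytes, and all 40 were found among the 20665 protein-coding autosomal genes of the RefSeq table. There were 12 pan-leukocyte, 15 myeloid, 6 T cell, 3 B cell and 4 natural killer (NK) and cytotoxic genes. The aged group held 3 samples, taken as mice of 18 months, and the mAdu group held 3 samples, taken as mice of 8 months. The series names both ages without tying them to the sample titles. All samples share the WT genotype, the sort for endothelial cells and the lung as tissue, and the sources used here do not give the surface markers of the sort. The assay was T-WGBS, whole-genome bisulfite sequencing with tagmented libraries, which reads at each CpG site whether the cytosine is methylated. Each value is the mean methylation level of a window of 1000 bp on the mm10 assembly, given here as percent. The labels do not name separate animals for the replicates, so p-values measure only how far these samples differ, and that spread may be technical.

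Methylated CpG sites at the start of a gene usually go with a gene that is not transcribed, whereas starts that are rich in CpG sites tend to be unmethylated in most cell types, whether or not the gene is active. Leukocyte genes such as Ptprc, which encodes the CD45 phosphatase, are unmethylated at their regulatory sites in blood cells and are used to look for blood cells in sorted tissue. Endothelial and blood cells are linked in the embryo by haemogenic endothelium, from which blood cells arise, and several transcription factors act in both.

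The 6 samples had mean levels between 73.1% and 73.7% over 1683697 windows with a value in every sample. The deposited table holds no read coverage, so the depth is unknown and no counting error could be given. The windows at 5 sites were read for each gene: the start, the less methylated of the gene's ends, the body, the whole locus (gene span and 5000 bp on either side), and each single window of the locus. RefSeq promoters, which run from 250 bases before to 50 bases after a start, were available for 29 members with 34 starts. Those of Spi1, Cd4, Cd79b, Ms4a1, Csf1r, Adgre1, Tyrobp, Cd52, Rac2, Itgb2 and Itgal had no entry and are described by their ends, bodies and loci.

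The starts with the lowest and the highest levels differed in their sequence. The 3 least methylated starts with distinct genes are shown first, as the 250 bases before the start on the gene's own strand, 5′ to 3′, from RefSeq (GRCm38.p6, the coordinates of mm10). Capitals mark CpG sites, and the only motif searched was CG, which reads the same on both strands.
Runx3, second start: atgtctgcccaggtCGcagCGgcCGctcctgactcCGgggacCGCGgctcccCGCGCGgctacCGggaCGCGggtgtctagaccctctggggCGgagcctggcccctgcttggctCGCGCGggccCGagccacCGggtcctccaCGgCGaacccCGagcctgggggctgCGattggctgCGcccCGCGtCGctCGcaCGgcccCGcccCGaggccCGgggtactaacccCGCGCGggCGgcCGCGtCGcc
Ikzf1, first start: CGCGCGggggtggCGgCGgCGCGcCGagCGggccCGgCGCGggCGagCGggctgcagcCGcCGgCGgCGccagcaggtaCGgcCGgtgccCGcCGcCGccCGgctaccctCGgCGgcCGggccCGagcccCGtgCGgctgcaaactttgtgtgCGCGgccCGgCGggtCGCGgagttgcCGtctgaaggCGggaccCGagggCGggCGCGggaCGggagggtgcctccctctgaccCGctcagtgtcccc
Lcp1, first start: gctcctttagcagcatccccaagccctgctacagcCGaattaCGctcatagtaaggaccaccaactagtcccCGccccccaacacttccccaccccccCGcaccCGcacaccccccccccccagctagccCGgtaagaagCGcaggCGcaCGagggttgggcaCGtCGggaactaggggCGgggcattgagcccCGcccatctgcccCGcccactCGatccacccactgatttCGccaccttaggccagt
They lie at chr4:135152295-135152544, chr11:11685675-11685924 and chr14:75130873-75131122, all on the plus strand. They hold 38, 44 and 16 CpG sites, with 78.8%, 82.0% and 66.0% of bases being G or C. The 3 most methylated starts follow, written in the same way.
Ncf1: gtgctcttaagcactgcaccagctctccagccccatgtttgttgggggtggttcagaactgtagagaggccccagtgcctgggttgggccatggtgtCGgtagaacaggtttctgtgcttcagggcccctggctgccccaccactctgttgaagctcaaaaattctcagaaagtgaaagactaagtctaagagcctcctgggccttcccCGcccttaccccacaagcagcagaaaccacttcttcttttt
Runx3, first start: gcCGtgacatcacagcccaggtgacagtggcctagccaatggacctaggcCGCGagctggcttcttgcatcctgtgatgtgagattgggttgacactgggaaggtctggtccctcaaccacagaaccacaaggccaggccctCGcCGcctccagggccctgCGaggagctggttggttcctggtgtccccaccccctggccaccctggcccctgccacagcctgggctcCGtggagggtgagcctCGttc
Itgam: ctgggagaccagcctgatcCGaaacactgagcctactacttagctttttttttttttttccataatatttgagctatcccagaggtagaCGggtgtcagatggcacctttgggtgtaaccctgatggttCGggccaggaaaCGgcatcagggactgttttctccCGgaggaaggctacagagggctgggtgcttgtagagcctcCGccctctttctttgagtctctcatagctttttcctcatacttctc
They lie at chr5:134229626-134229875 on the minus strand, and at chr4:135120395-135120644 and chr7:128062390-128062639 on the plus strand. They hold 2, 8 and 6 CpG sites, with 54.4%, 65.2% and 49.6% of bases being G or C. The median of the 34 member promoters was 3 CpG sites in these 250 bases. Over all 29229 autosomal RefSeq promoters with a window it was 7, and 4.58% of them held none.

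Most leukocyte marker genes were methylated at their starts in lung endothelial cells of both ages. The median level over the 34 starts, averaged over the 6 samples, was 65.3%, against 27.6% for all autosomal starts. Only 6 of the 34 starts (17.6%) were under 20%, against 46.4% of all starts. Those 6 belonged to Runx3, Ikzf1, Lcp1 and Coro1a, and the 2 starts of Coro1a share a window. The mean over the starts was 58.4% ± 0.271 in aged and 57.9% ± 0.906 in mAdu samples. In these bulk samples an intermediate level cannot be told apart as fewer methylated cells or as fewer methylated sites in every cell.

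Among pan-leukocyte genes the starts spanned the range from unmethylated to methylated. Ikzf1 encodes Ikaros, a zinc-finger transcription factor of lymphoid development (chr11:11684962-11772930). Its first start had 1.96%, 4.37% and 2.39% in aged samples, against 1.35%, 2.12% and 2.89% in mAdu samples. Every sample was near 0 there and the groups overlapped. Its second start, 1 CpG in 250 bases, had 75.95%, 69.1% and 73.2% in aged samples, against 71.6%, 69.8% and 77.4% in mAdu samples, so both states stood within 1 gene in all samples. Lcp1 encodes L-plastin, an actin-bundling protein of leukocytes (chr14:75131105-75230842). The first start of Lcp1 had 4.52%, 4.20% and 2.43% in aged samples, against 3.61%, 3.52% and 2.98% in mAdu samples, over windows shared with the start of Lrrc63 on the other strand. Its second start had 6.97%, 6.43% and 5.01% in aged samples, against 6.10%, 7.47% and 3.83% in mAdu samples, and no sample stood apart at either start. Coro1a, which encodes the actin regulator coronin 1A (chr7:126699774-126704816), had 14.9%, 17.6% and 18.6% in aged samples, against 18.97%, 18.3% and 18.9% in mAdu samples at its first start. Its second start had 3.66%, 4.20% and 4.66% in aged samples, against 4.69%, 4.06% and 4.41% in mAdu samples, lower than the first in every sample. The other pan-leukocyte starts were methylated. Ptprc had 58.03%, 57.4% and 62.6% in aged samples, against 72.3%, 57.3% and 51.5% in mAdu samples, with mAdu samples the more scattered; its 2 RefSeq starts fall in the same window and give 1 value. Vav1, a guanine nucleotide exchange factor of blood cell signalling, averaged 64.4% ± 0.210 in aged and 60.7% ± 3.26 in mAdu samples (SD, n = 3 each). Laptm5, a lysosomal protein of haematopoietic cells, was the least methylated of the rest at 56.7% ± 0.721 in aged and 51.9% ± 2.81 in mAdu samples. Cd53, a tetraspanin, and Cd48, an adhesion receptor of the SLAM family, lay at 71.9% and 76.2% over all samples.

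All 11 myeloid starts with an entry lay at or above 49.98%. The lowest was that of Lyz2, which encodes the lysozyme of macrophages, with 47.8%, 45.8% and 43.1% in aged samples, against 51.8%, 56.9% and 54.4% in mAdu samples. Every aged sample was below every mAdu sample there, and the test is given with the comparison by age. The highest was that of Ncf1, which encodes a cytosolic subunit of the phagocyte NADPH oxidase, with 95.7%, 95.2% and 90.7% in aged samples, against 98.7%, 89.8% and 95.6% in mAdu samples. Itgam, the alpha M integrin chain of myeloid cells also called CD11b, had 81.97%, 79.8% and 81.8% in aged samples, against 81.7%, 81.6% and 79.2% in mAdu samples. Both starts were methylated in every sample, and the groups overlapped. Itgax, the alpha X chain (CD11c), averaged 57.4% ± 0.563 in aged and 55.2% ± 3.61 in mAdu samples (SD, n = 3 each). The scavenger receptor Marco of alveolar macrophages lay at 64.9%, the mannose receptor Mrc1 at 64.97%, and Siglecf, a lectin of alveolar macrophages and eosinophils, at 77.1%. The Fc receptor genes Fcgr1 and Fcer1g lay at 69.7% and 78.8%, and the neutrophil calcium-binding proteins S100a8 and S100a9 at 59.4% and 66.1%.

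T cell, B cell and NK starts with an entry were methylated too, with the second start of Runx3 as the exception. Cd4, Cd79b and Ms4a1 had no entry, so Cd79a alone stands for the B cell starts. Runx3 encodes a Runt-domain factor of CD8 T cells and NK cells and has a distal first and a proximal second promoter (chr4:135120645-135177990). The first had 81.97%, 83.5% and 79.3% in aged samples, against 81.01%, 79.5% and 83.7% in mAdu samples. The second had 2.05%, 1.51% and 2.20% in aged samples, against 3.995%, 2.92% and 1.64% in mAdu samples, so the distal start was methylated and the proximal start unmethylated in all 6 samples. The CD3 chains of the T cell receptor complex lay at 78.8% (Cd3e), 74.9% (Cd3d) and 63.6% (Cd3g), and the co-receptor chain Cd8a at 69.7%. Cd79a, a signalling chain of the B cell receptor, lay at 58.4%. The granule protease genes Gzma and Gzmb lay at 80.8% and 73.04%, the granule protein Nkg7 at 65.7% and the NK receptor Klrb1c at 74.3%.

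**Figure D1:**
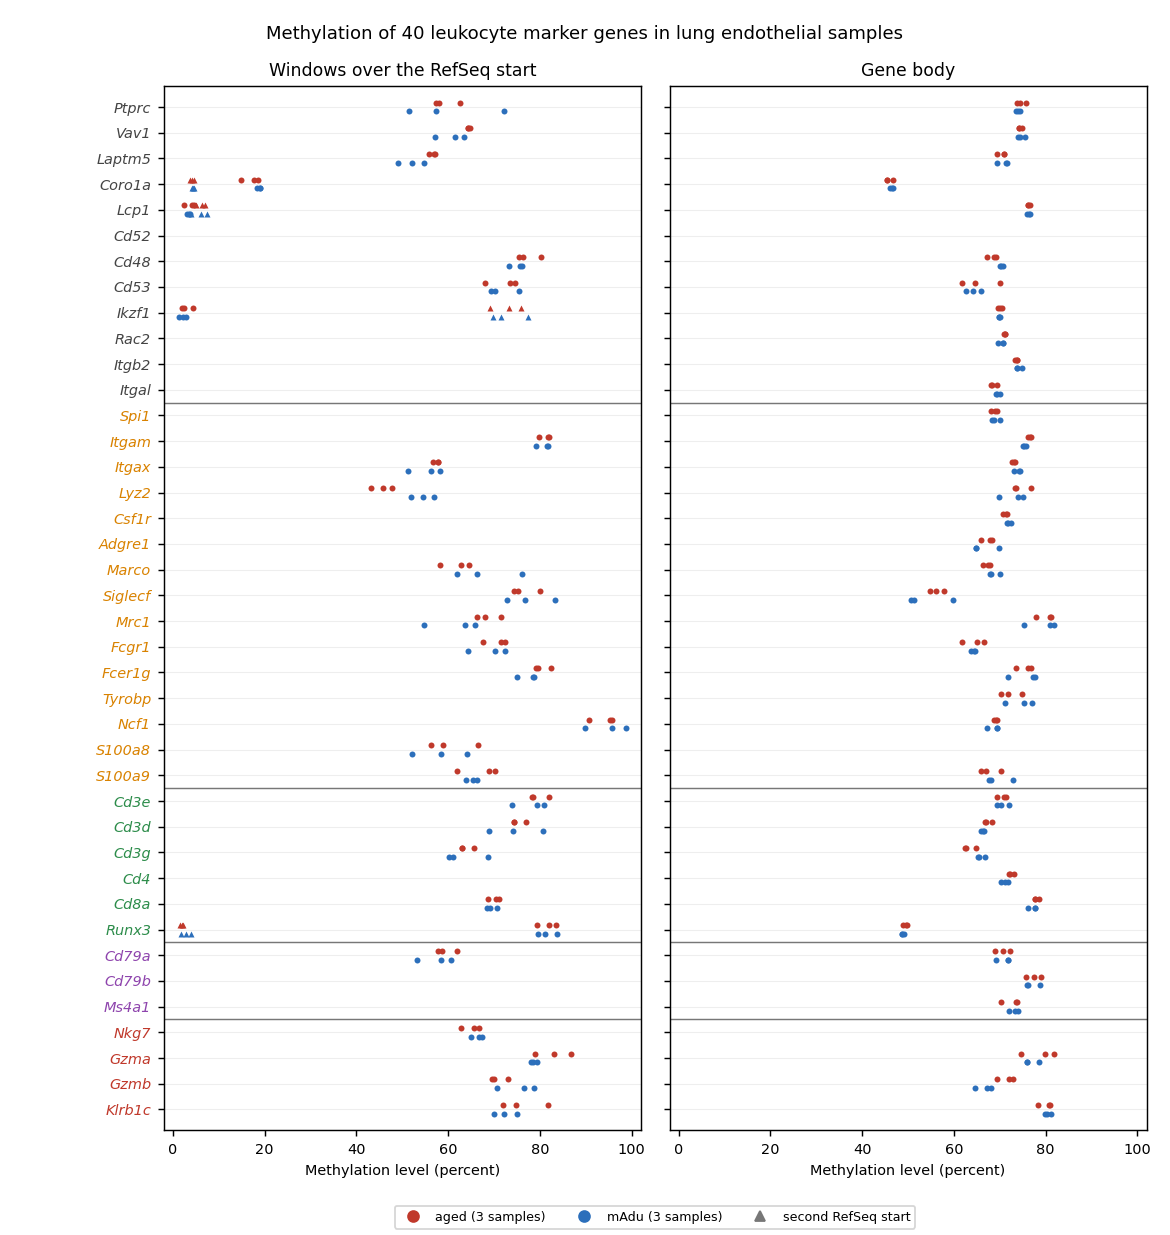
Methylation level in percent (horizontal axis) of the 40 genes (rows, coloured by class) at their RefSeq starts (left) and over their bodies (right). Each circle is 1 sample, red for aged and blue for mAdu, and triangles are a second start; genes without a start entry or with too few body windows have no points. Starts of Runx3, Ikzf1, Lcp1 and Coro1a lie under 20%, and bodies lie between 45.4% and 81.9% in every sample.

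Member starts with at least 10 CpG sites had low levels, but below that the median level did not fall steadily as sites increased. All 4 member promoters with at least 10 CpG sites were under 20%, where the median of all such promoters was 2.32% and 90.0% were under 20%. Of these 4, the first start of Coro1a was under 20% only as a mean with the window of its second start. The 15 member promoters with 0 to 2 CpG sites had a median of 69.7%, against 72.0% for all promoters in that range. With 3 to 5 sites the 9 members had a median of 63.6% and all promoters 66.5%. Of these 9 only the second start of Lcp1 was under 20%. The 6 members with 6 to 9 sites had a median of 70.7%, where all promoters in that range had 31.3% and 40.6% were under 20%. These 6 were the first start of Runx3, the second start of Coro1a, Itgam, Cd3e, Cd79a and Vav1, and only that of Coro1a was under 20%. Across the 34 starts the number of CpG sites and the level had Spearman's rho -0.357 and Pearson's r -0.674, as a description, since starts share libraries and some share a gene or a window. Across all 29229 starts Spearman's rho was -0.743.

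**Figure D2:**
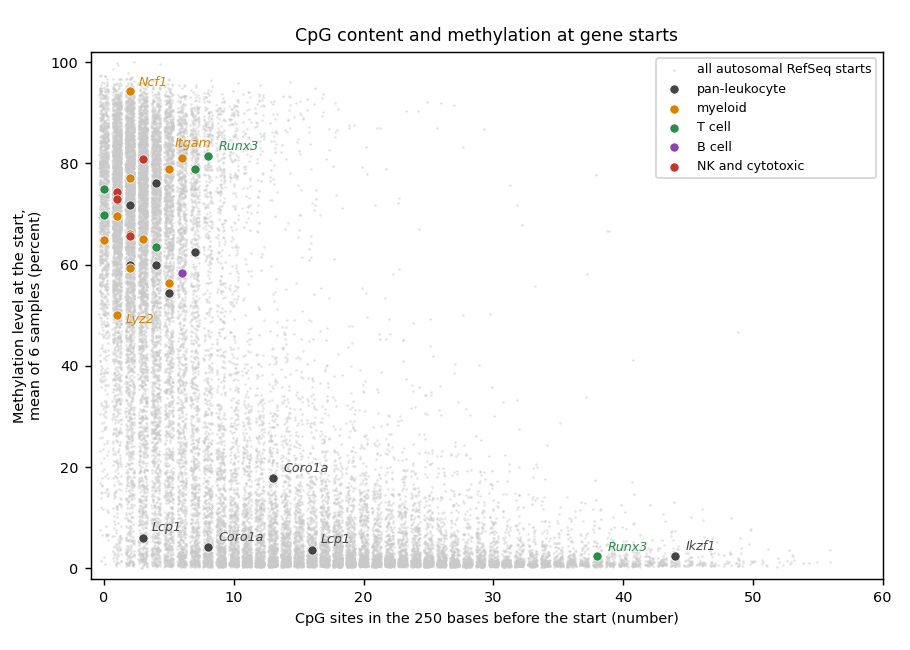
CpG sites in the 250 bases before a start (horizontal axis, number) and methylation level at the start (vertical axis, percent, mean of the 6 samples). Grey points are the 29229 autosomal RefSeq starts and coloured points the 34 member starts; most members lie at the upper left, with few CpG sites and a median of 65.3%, and 6 lie under 20%.

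Gene bodies of the marker genes were methylated near the level of other genes. Bodies were taken without the outer 500 bp at each edge and with no fewer than 3 windows, which left 37 members and left out Cd52, S100a8 and Nkg7. The median level was 70.7%, against 73.3% over all 17534 bodies, and no member body was under 20%. By class the bodies averaged 68.97% ± 0.645 in aged and 69.1% ± 0.305 in mAdu samples for pan-leukocyte genes and 70.3% ± 0.358 in aged and 70.3% ± 0.330 in mAdu samples for myeloid genes (SD over 3 samples of the mean over genes, here and in the next sentence). T cell bodies averaged 66.8% ± 0.229 in aged and 66.6% ± 0.259 in mAdu samples, B cell bodies 73.5% ± 0.667 in aged and 73.6% ± 0.804 in mAdu samples and NK and cytotoxic bodies 76.7% ± 0.659 in aged and 74.6% ± 0.155 in mAdu samples. The lowest and highest body of each class show how far the members differed. Among pan-leukocyte genes the body of Coro1a was the lowest, with 45.5%, 45.4% and 46.7% in aged samples, against 46.2%, 46.4% and 46.7% in mAdu samples. That of Lcp1 was the highest, with 76.6%, 76.04% and 76.1% in aged samples, against 76.4%, 76.6% and 75.97% in mAdu samples, although its starts were unmethylated. Among myeloid genes Siglecf was the lowest with 54.8%, 56.1% and 57.7% in aged samples, against 50.6%, 59.8% and 51.3% in mAdu samples, and its mAdu samples scattered over a wider range. The body of Mrc1 was the highest with 77.97%, 80.8% and 81.1% in aged samples, against 75.3%, 81.01% and 81.9% in mAdu samples. Runx3 had the lowest T cell body, with 48.9%, 49.8% and 49.5% in aged samples, against 49.1%, 48.7% and 48.6% in mAdu samples, a narrow band in all samples. Cd8a had the highest, with 78.6%, 77.7% and 77.8% in aged samples, against 77.8%, 76.2% and 77.6% in mAdu samples. Both B cell receptor chains had methylated bodies. Cd79a, the lowest B cell body, had 68.96%, 72.3% and 70.6% in aged samples, against 71.7%, 71.7% and 69.2% in mAdu samples. Cd79b, the highest, had 75.7%, 79.02% and 77.4% in aged samples, against 75.9%, 78.8% and 76.2% in mAdu samples. Of the 3 NK and cytotoxic genes with a body value, Gzmb had the lowest body at 69.01% and Klrb1c the highest, with 80.7%, 78.3% and 80.96% in aged samples, against 80.3%, 81.2% and 79.9% in mAdu samples. Over whole loci the members averaged 69.1% ± 0.305 in aged and 69.2% ± 0.116 in mAdu samples, and the loci ranged from 52.4% for Runx3 to 80.3% for Cd8a.

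The less methylated end of a gene, from 1000 bp outside to 500 bp inside an edge, covers also the 11 members without a start entry, but can belong to a neighbour. The 40 ends had a median of 65.97%, against 34.4% over all 20248 ends, and 2 of them (5%) were under 20%, against 28.5% of all ends. These were the starts of Lcp1 and Coro1a already given. The least methylated myeloid end was that of Spi1, which encodes the transcription factor PU.1, with 36.98%, 33.3% and 31.7% in aged samples, against 35.1%, 34.6% and 33.3% in mAdu samples at its edge of higher coordinates. Csf1r, the receptor of macrophage colony-stimulating factor, had the highest, with 84.7%, 83.1% and 84.7% in aged samples, against 85.6%, 80.8% and 84.4% in mAdu samples. Neither end separated the ages. Among T cell genes the end of the co-receptor Cd4 was the lowest, with 23.2%, 24.2% and 24.8% in aged samples, against 23.6%, 23.8% and 23.3% in mAdu samples, and its windows overlap the neighbouring Gpr162. The highest T cell end, that of Cd8a, had 73.3%, 68.6% and 70.6% in aged samples, against 67.4%, 70.1% and 67.7% in mAdu samples. The end of Cd79a had 27.3%, 31.1% and 28.6% in aged samples, against 35.6%, 29.8% and 25.8% in mAdu samples, and this is its far end beside the start of Arhgef1, whereas its own start lay at 58.4%. Cd79b had the highest B cell end, with 75.3%, 80.4% and 77.6% in aged samples, against 78.2%, 83.03% and 76.3% in mAdu samples. The ends of Cd48 and Klrb1c were the highest of the pan-leukocyte and NK classes. The end of Cd48 had 76.7%, 72.8% and 78.8% in aged samples, against 74.7%, 78.2% and 74.4% in mAdu samples. Klrb1c had 77.2%, 73.6% and 84.9% in aged samples, against 76.2%, 82.4% and 81.5% in mAdu samples. The remaining ends without a start entry were also methylated: Itgb2 and Itgal, the beta 2 integrin chain and its alpha L partner, lay at 62.1% and 74.04%, the small GTPase Rac2 at 54.4%, the surface glycoprotein Cd52 at 73.3%, the macrophage receptor Adgre1 at 73.2%, the adaptor Tyrobp at 70.5% and the B cell protein Ms4a1 (CD20) at 65.6%.

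Unmethylated windows were about as rare in the marker loci as among all windows and were gathered in some of the loci. The 40 loci held 1236 distinct windows, of which 42 (3.40%) were under 20% on average, against 2.89% of all windows, and 416 (33.7%) were over 80%, against 44.0% of all windows. The 42 windows lay in 14 members, 16 of them outside the gene span, and 15 held a RefSeq start. Runx3 held 14 of them, centred from -12044 to 22956 bp of its second start, all within the gene. From -2044 to 5956 bp of this start the 9 windows were all between 2.39% and 14.9%. At the start window itself, chr4:135152001-135153000, the values are those of the second start above, and the next window had 2.13%, 2.33% and 2.74% in aged samples, against 3.18%, 3.31% and 2.43% in mAdu samples. In Ikzf1 the windows at and just after the first start were the 2 under 20%, and the second, chr11:11686001-11687000, had 3.95%, 4.70% and 4.10% in aged samples, against 3.36%, 3.45% and 2.98% in mAdu samples. Aged samples were all the higher in it, by 0.987 points (limma adjusted p = 0.978). The predicted gene Gm11999 overlaps the first of these windows. Lcp1 held 5, of which the 1 centred 40076 bp after its second start had 20.6%, 19.8% and 19.1% in aged samples, against 20.03%, 10.03% and 14.9% in mAdu samples. Several members had such windows without a RefSeq start or another gene in them. For Spi1, which has no start entry, a start of its own could not be looked for. A pair of windows centred at -3599 and -2599 bp from the start of Vav1, from chr17:57275001-57276000 to the next, had 0.648% and 0.871% over all samples, while the start of Vav1 lay at 62.6%. The first of them had 1.83%, 0.456% and 0.291% in aged samples, against 0.398%, 0.199% and 0.709% in mAdu samples. Spi1 had a window at chr2:91078001-91079000, 3374 bp outside its span, with 9.91%, 7.33% and 10.04% in aged samples, against 8.04%, 8.32% and 9.25% in mAdu samples, and another across its edge of higher coordinates with 8.54%. Mrc1 had 1 window under 20%, centred 6087 bp after its start, with 11.4%, 15.4% and 14.1% in aged samples, against 13.4%, 15.7% and 11.5% in mAdu samples. Fcgr1 had 1 at chr3:96278001-96279000, 3909 bp beyond its far edge, with 6.67%, and Siglecf had 1 within the gene with 19.9%. Other low windows stood at genes next to the members: Bola2 and Slx1b beside Coro1a, Nfkbid beside Tyrobp, Ube4a beside Cd3g, Gpr162 beside Cd4, Arhgef1 beside Cd79a, and Etfb and Cldnd2 beside Nkg7. The other 26 loci had no covered window under 20% on average, among them Ptprc, Itgam, Cd3e, Cd8a, Gzma and Gzmb. Adgre1 is among the 26 only by its mean. Its lowest window, chr17:57430001-57431000, averaged 26.8%, with 44.7%, 12.1% and 0.833% in aged samples, against 3.71%, 3.48% and 95.7% in mAdu samples. At Ptprc the lowest window, 8625 bp after the start, had 37.02%, 68.3% and 56.9% in aged samples, against 47.7%, 35.5% and 52.9% in mAdu samples, a wide scatter in both groups. The lowest window of Itgam, 2861 bp after its start, had 53.1%, 51.2% and 50.5% in aged samples, against 48.9%, 51.7% and 50.96% in mAdu samples. Part of the loci was not covered: Gzmb had values in 5 of 15 windows, Cd53 in 10 of 43, Adgre1 in 58 of 136, S100a8 in 6 of 12 and Ptprc in 71 of 124.

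**Figure D3:**
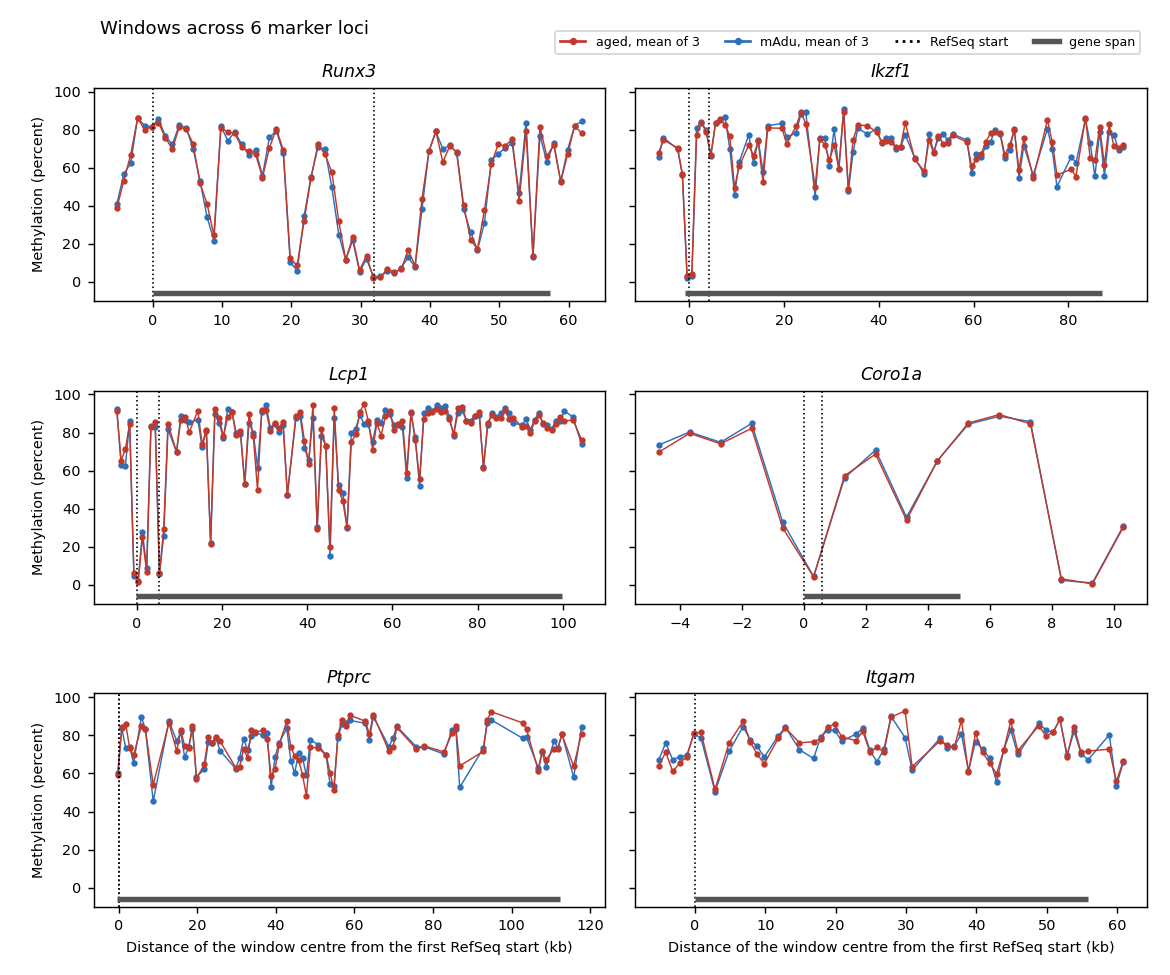
Methylation level of each window (vertical axis, percent, mean of 3 samples) by distance from the first RefSeq start (horizontal axis, kb, in the direction of transcription) at 6 loci, red for aged and blue for mAdu. The lines of both ages run together. Runx3 dips around its second start, Ikzf1 around its first and Lcp1 at both of its starts. Coro1a dips at its starts and again past its far end beside Bola2 and Slx1b, and Ptprc and Itgam have no dip under 20%.

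Set beside markers of other lung cell types, the member starts and ends had high medians. The member starts had a median of 65.3%. Of 20 endothelial genes, 11 had a start entry, and their starts had a median of 3.84%, with 12 of 15 starts (80%) under 20%. The lowest was that of the angiopoietin receptor Tek at 1.04% and the highest that of the transcription factor Erg at 78.8%. Of the less methylated ends of all 20 genes, 45% were under 20%. The number of CpG sites at the endothelial starts was not compared, so their low levels cannot by themselves check the labelled cell type. Starts of lung epithelial markers had a median of 36.2% (12 starts) and those of mesenchymal markers 25.9% (11 starts). A second list of 58 leukocyte genes had a median of 62.2% over 47 starts, 17.02% of them under 20%, against 17.6% of the member starts. Starts of this second list ranged from 0.868% at Bcl11b to 88.4% at Lck. At the ends the medians were 65.97% for the members, 62.5% for the second list, 22.6% for endothelial, 42.2% for epithelial and 31.2% for mesenchymal markers. Over bodies they were 70.7% for the members, 71.1% for the second list, 51.4% for endothelial, 70.3% for epithelial and 70.2% for mesenchymal markers. These medians describe lists of genes in the same 6 samples, and no test was made between lists.

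**Figure D4:**
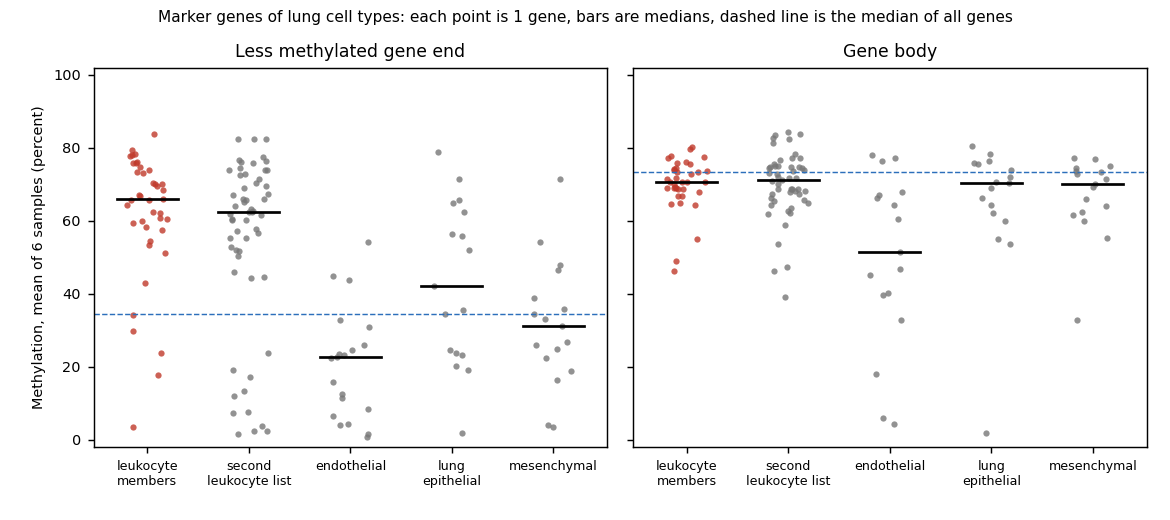
Methylation level (vertical axis, percent, mean of the 6 samples) of the less methylated gene end (left) and the gene body (right) for 5 lists of marker genes. Each point is 1 gene, black bars are list medians and the dashed line is the median of all genes; member ends have a median of 66.0%, above the 34.4% of all genes, and endothelial bodies have a median of 51.4%.

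The comparison of aged with mAdu samples asks whether methylation of leukocyte genes in the endothelial fraction differs with age. No member passed at any site. With limma and Benjamini-Hochberg adjustment at 0.05 over all features of a kind, 0 of 34 member starts were called, where 0.0103% of all starts were called. Of 40 member ends 0 were called and of all ends 0%. Of 37 bodies 0 were called, where 0.0171% of all bodies were, and of 40 loci 0, where 0% of all loci were. Of 1236 member windows 0 were called, where 0.0211% of all windows were. At an unadjusted limma p under 0.05 there were 1 of 34 member starts, 1 of 40 ends, 4 of 37 bodies and 4 of 40 loci. Over all features, 4.68% of starts, 4.93% of ends, 4.97% of bodies and 4.82% of loci were under 0.05. Of the windows 65 (5.26%) were, against 4.67% of all windows. The groups did not overlap at 5 of 34 starts (14.7%, against 10.4% of all starts), 5 of 40 ends (12.5%, against 10.1%), 8 of 37 bodies (21.6%, against 10%) and 8 of 40 loci (20%, against 10.1%). The directions were mixed: aged samples were the higher at 4 of those 5 starts, 4 of those 5 ends, 5 of those 8 bodies and 3 of those 8 loci.

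Differences between the ages were small in the middle of the list. The median difference, aged minus mAdu, was 0.449 points at starts, 0.411 at ends, 0.0171 over bodies and -0.0757 over loci. Over all features of each kind these medians were 0.0261, 0.0323, -0.0392 and -0.0494 points. Aged means were higher than mAdu means at 22 of 34 starts, 23 of 40 ends, 19 of 37 bodies and 17 of 40 loci. Ends averaged 61.7% ± 0.651 in aged and 61.1% ± 0.822 in mAdu samples over the 40 members. By class, the ends averaged 56.03% ± 0.112 in aged and 55.5% ± 1.13 in mAdu samples for pan-leukocyte, 65.97% ± 1.01 in aged and 65.6% ± 0.592 in mAdu samples for myeloid and 59.95% ± 0.261 in aged and 58.6% ± 0.770 in mAdu samples for T cell genes. B cell ends averaged 57.3% ± 2.28 in aged and 58.6% ± 2.22 in mAdu samples and NK and cytotoxic ends 68.9% ± 1.77 in aged and 66.8% ± 2.38 in mAdu samples. Of the member bodies, 29 of 37 (78.4%) had a 95% interval of the difference within 5 points of 0, as did 91.7% of all bodies, and of the member loci 38 of 40 (95%), as did 88.7% of all loci. Starts and ends were less closely bounded. Only 9 of 34 member starts (26.5%) had such an interval, against 50.5% of all starts, and 10 of 40 member ends (25%), against 58.6% of all ends. These shares were not matched for level. The 6 member starts under 20% had standard errors of the difference from 0.463 to 1.19 points, and the other member starts from 1.62 to 5.16 points. Of all starts 46.4% were under 20%, against 17.6% of member starts. Sample by sample, mAdu replicate 3 was the lowest of the 6 at 12 of 40 ends (30%, against 17.7% of all genes) and aged replicate 3 at 3 (7.5%, against 14.9%). Aged replicate 3 was also the lowest at the fewest bodies, 2 of 37 (5.41%). The same sample was the least often lowest over all bodies (10.2%), and had the highest mean level over all windows.

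**Figure D5:**
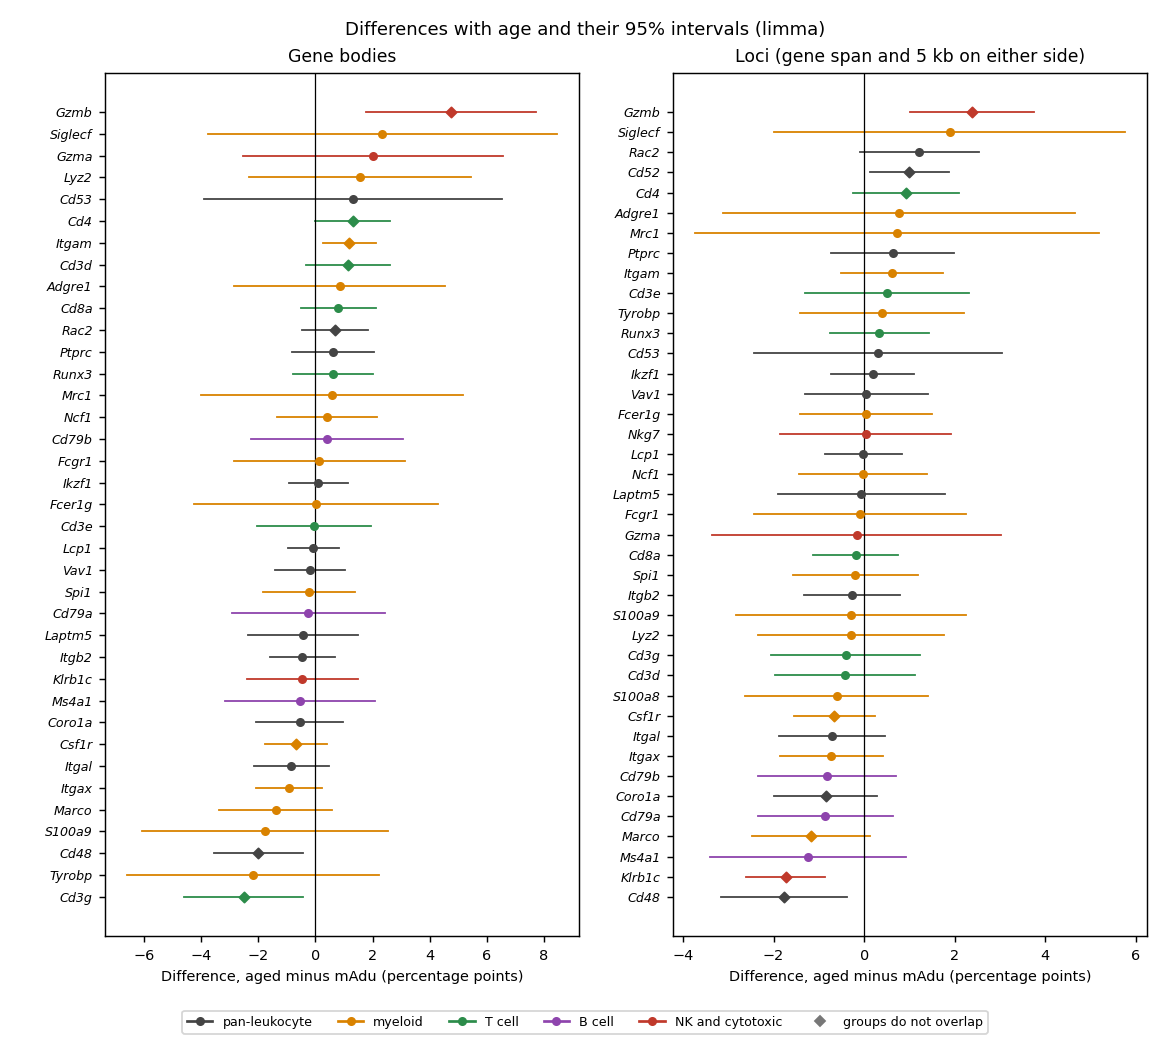
Difference, aged minus mAdu, in percentage points (horizontal axis) for the 37 bodies (left) and 40 loci (right), ordered by size and coloured by class. Bars are 95% intervals from limma and diamonds mark genes whose groups do not overlap; the differences run from -2.52 points (Cd3g) to 4.76 points (Gzmb) over bodies and from -1.77 points (Cd48) to 2.38 points (Gzmb) over loci, and none passed.

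At the starts the member with the smallest p was Lyz2, whose values by sample are given above. Its difference was -8.78 points (95% interval -14.4 to -3.14, limma adjusted p = 0.939). Mrc1 followed with 67.97%, 66.2% and 71.5% in aged samples, against 65.8%, 54.6% and 63.7% in mAdu samples, a difference of 7.17 points (95% interval -0.734 to 15.1, limma adjusted p = 0.939), and the groups did not overlap. Without mAdu replicate 2 the difference at Mrc1 was 3.80 points. Laptm5 had 57.2%, 55.9% and 56.9% in aged samples, against 52.2%, 54.6% and 49.02% in mAdu samples, also without overlap, a difference of 4.73 points (95% interval -0.594 to 10.05, limma adjusted p = 0.939). Gzma had 78.96%, 86.8% and 83.03% in aged samples, against 78.5%, 78.04% and 79.4% in mAdu samples, with 1 aged sample inside the mAdu range and a difference of 4.27 points, or 2.34 points without aged replicate 2. The start of Gzmb had 73.01%, 69.5% and 70.01% in aged samples, against 76.4%, 78.7% and 70.6% in mAdu samples, overlapping, with a difference of -4.44 points. It was -2.71 points without mAdu replicate 2 and -6.75 points without mAdu replicate 3. The groups also did not overlap at the starts of Vav1 and Fcer1g, by 3.69 and 2.98 points.

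At the ends Gzmb, the granzyme B gene of cytotoxic lymphocytes (chr14:56258836-56262334), had the smallest p. Its less methylated end, a single window within the gene, had 54.6%, 59.5% and 58.4% in aged samples, against 44.9%, 54.2% and 48.3% in mAdu samples. All aged samples were above all mAdu samples there, by 8.37 points (95% interval 1.94 to 14.8, limma adjusted p = 0.964). The same window is part of its body, which had 72.8%, 71.9% and 69.4% in aged samples, against 64.7%, 67.3% and 67.99% in mAdu samples, a difference of 4.76 points (95% interval 1.77 to 7.74, limma adjusted p = 0.953), again without overlap. Its start, in another window, differed by -4.44 points, in the other direction. The end of Mrc1 had 67.7%, 66.02% and 70.4% in aged samples, against 66.1%, 61.8% and 62.9% in mAdu samples, overlapping, with a difference of 4.41 points (95% interval -0.213 to 9.04, limma adjusted p = 0.964). Itgb2 had 62.6%, 66.2% and 63.3% in aged samples, against 61.3%, 58.4% and 61.01% in mAdu samples, a difference of 3.80 points (95% interval -0.293 to 7.90, limma adjusted p = 0.964) without overlap. The ends of Vav1 and Coro1a, which cover the starts given above, were next with 3.69 and -1.68 points. That of Vav1 was 1.89 points without mAdu replicate 3, and that of Coro1a was -0.620 points without aged replicate 1. Cd52 and Cd53 did not overlap either, with 2.73 and -1.50 points.

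Over bodies the smallest p after Gzmb was that of Cd48, with 68.6%, 67.1% and 69.1% in aged samples, against 70.2%, 70.7% and 70.1% in mAdu samples. Aged samples were all the lower, with a difference of -2.004 points (95% interval -3.56 to -0.449, limma adjusted p = 0.953), but with the median in place of the mean over its windows the difference was 1.09 points. Itgam had 76.2%, 76.9% and 76.7% in aged samples, against 75.8%, 75.2% and 75.2% in mAdu samples, with aged samples all the higher and a difference of 1.19 points (95% interval 0.257 to 2.13, limma adjusted p = 0.953). The body of Cd3g had 62.4%, 64.9% and 62.7% in aged samples, against 65.2%, 66.9% and 65.5% in mAdu samples, aged samples all the lower, a difference of -2.52 points (95% interval -4.62 to -0.421, limma adjusted p = 0.955), and 1.25 points with the median over windows. The body of Cd4 had 72.1%, 72.1% and 73.03% in aged samples, against 71.2%, 70.3% and 71.7% in mAdu samples, aged samples all the higher, a difference of 1.31 points (95% interval -0.0152 to 2.63, limma adjusted p = 0.982). With the mean over windows Cd3g and Cd4, both genes of T cells, lay on opposite sides. With the median both differences were positive, at 1.25 and 3.12 points, and neither gene passed. Cd3d, Rac2 and Csf1r were the other bodies without overlap, with 1.14, 0.683 and -0.679 points.

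Over whole loci Klrb1c, an NK receptor of the C-type lectin family (chr6:128778485-128788641), had the smallest p. It had 78.4%, 78.1% and 78.9% in aged samples, against 80.2%, 80.6% and 79.9% in mAdu samples. The aged samples were all the lower, with a difference of -1.74 points (95% interval -2.61 to -0.863, limma adjusted p = 0.889). Gzmb followed with 70.1%, 69.9% and 70.7% in aged samples, against 67.1%, 67.7% and 68.7% in mAdu samples, aged samples all the higher, and a difference of 2.38 points (95% interval 1.02 to 3.74, limma adjusted p = 0.889) over the 5 windows that its locus had. The locus of Cd48 had 70.4%, 69.9% and 71.3% in aged samples, against 71.8%, 73.1% and 72.1% in mAdu samples, all aged samples the lower, a difference of -1.77 points (95% interval -3.16 to -0.372, limma adjusted p = 0.980). Cd52 had 74.3%, 74.5% and 74.3% in aged samples, against 73.4%, 73.8% and 72.9% in mAdu samples, all aged samples the higher, a difference of 0.998 points (95% interval 0.123 to 1.87, limma adjusted p = 0.980), and -1.15 points with 2000 bp in place of 5000 bp on either side. Rac2 had 72.1%, 71.1% and 70.6% in aged samples, against 69.8%, 69.7% and 70.7% in mAdu samples, overlapping, with 1.22 points (95% interval -0.0987 to 2.54, limma adjusted p = 0.980). The cytotoxic genes Klrb1c and Gzmb differed in direction. Within these loci the least methylated windows were at 43.97% in Klrb1c, 53.3% in Gzmb, 41.4% in Cd48, 47.2% in Cd52 and 39.9% in Rac2. Cd4, Csf1r, Marco and Coro1a were the other loci without overlap, with 0.926, -0.660, -1.18 and -0.852 points.

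Among the 1236 single windows the groups did not overlap in 145 (11.7%, against 10% of all windows), with aged samples higher in 76 and lower in 69. The 10 with the smallest p had a limma adjusted p of 0.978 each. A pair of them lay in Adgre1, an adhesion receptor of macrophages, and held values at the limits of the scale. At chr17:57373001-57374000 the levels were 56.04%, 72.8% and 50% in aged samples, against 1.8e-22%, 30.3% and 9.6e-67% in mAdu samples. At chr17:57371001-57372000 they were 39.1%, 49.9% and 0.0043% in aged samples, against 77.7%, 86.7% and 95.2% in mAdu samples. The directions were opposite although the windows lie 2000 bp apart. Another, chr17:57448001-57449000, had 58.7%, 60.5% and 64.3% in aged samples, against 70.9%, 72.2% and 69.5% in mAdu samples, without such values. Of the member windows 9 held such a value, within 0.01 points of 0% or 100%, in 1 or more samples, 4 in Adgre1 and 5 in Mrc1. Levels such as 1.8e-22% are too small to be a plain share of methylated reads. They cannot be taken as measured levels, and how they were made was not tested. Neighbouring windows may also not be separate readings. Mrc1 had 3 of the 10 windows. That at chr2:14254001-14255000 had 72.2%, 83.8% and 80.3% in aged samples, against 89.5%, 93.2% and 92.1% in mAdu samples. That at chr2:14252001-14253000 had 71.9%, 73.3% and 77.96% in aged samples, against 64.4%, 50.8% and 63.9% in mAdu samples, in the opposite direction 2000 bp away. That at chr2:14299001-14300000 averaged 77.9% ± 5.53 in aged and 92.5% ± 7.79 in mAdu samples (SD, n = 3 each). The window of Klrb1c at chr6:128776001-128777000, 1485 bp beyond its far end, had 84.02%, 82.8% and 83.8% in aged samples, against 96.5%, 89.1% and 90.96% in mAdu samples. The windows of Spi1 at chr2:91109001-91110000 and Lcp1 at chr14:75184001-75185000 were higher in aged samples. Spi1 had 76.2%, 79.6% and 80.9% in aged samples, against 71.5%, 66.1% and 69.1% in mAdu samples. Lcp1 had 96.7%, 89.1% and 99.05% in aged samples, against 82.6%, 87.5% and 82.99% in mAdu samples. In Vav1 the window centred 2401 bp after the start, chr17:57281001-57282000, had 82.7%, 81.4% and 83.4% in aged samples, against 91.6%, 94.3% and 85.99% in mAdu samples, lower in every aged sample. Counted in each sample, windows under 20% were 3.72% ± 0.214 of the member windows in aged and 3.88% ± 0.0809 in mAdu samples (SD, n = 3 each), against 3.48% and 3.46% of all windows.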

How the data were processed

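The deposited table gives mean methylation as a fraction from 0 to 1 for each sample and window of 1000 bp on 19 autosomes, as made by the authors. Per the submitters' processing notes, reads were aligned with BWA 0.7.8 to mm10. The sources used here do not give the methylation caller, the coverage filter or the averaging within a window. Fractions were multiplied by 100. Of 1684140 windows, 1683697 had no missing value and were used.

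The value of a start, end, body or locus is the plain mean over its overlapping windows. Features of a kind were fitted together with limma 3.58.1 in R 4.3.3, on percent, with age group in the model, a trend in the variance, and adjustment by Benjamini and Hochberg at 0.05, after a test on simulated data. Intervals are 95% intervals of that model. An exact permutation test of 3 samples against 3 cannot go below p = 0.1 and was not used. The depth is unknown, and how far depth or the number of samples limits the precision was not tested.

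The members and lists were chosen with earlier results of these data known. Genes were named by rule: in each class the lowest and highest end and body, ends under 20%, the 5 smallest p at ends, bodies and loci, and the 10 windows with the smallest p. The starts, the genes named at them and the named windows under 20% were chosen after their values were seen. Alternatives were the logit scale, no variance trend, centring of samples, a replicate block, other widths, medians of windows, at least 10 windows, removal of windows with a value within 0.01 points of 0% or 100%, and leaving out each sample.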

Additional observations from a re-analysis of the deposited data

How the results depend on the processing

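No member start, end, body, locus or window was called by limma under any alternative run. Counts over all features moved. The 3 called starts became 0 without the variance trend, on the logit scale, and without windows with extreme values, meaning within 0.01 points of 0% or 100%. The count of 0 called ends became 3 at the end of the start and 1 without extreme values. The 3 called bodies became 1 with at least 10 windows, 1 on the logit scale and 0 without extreme values. The 355 called windows became 81 on the logit scale and 59 without extreme values. Leaving out 1 sample gave between 0 and 6 starts, 0 and 5 ends, 0 and 3 bodies, 0 and 3 loci, and 680 and 998 windows. The causes were not tested.

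With the replicate number as a block the counts were 0 starts, 0 ends, 0 bodies, 2 loci and 185 windows, and no member was called. Samples of the same number did not deviate together (r over bodies of -0.166, -0.136 and -0.00642), so the numbers were not taken as pairs.

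The mean level of member ends, 61.4%, was 63.0% with 2000 bp outside and 66.7% at the end of the start. That of bodies, 70.0%, was 70.5% with at least 10 windows and 73.2% with the median over windows, and that of loci, 69.2%, was 70.1% with 2000 bp on either side and 72.9% with the median. Without 1 sample each, these means ran from 61.2% to 61.7%, 69.9% to 70.1% and 69.1% to 69.2%, and that of starts from 58.0% to 58.3%. With the median over windows the median difference was 0.432 points over bodies and 0.516 over loci. Leaving out 1 sample gave -0.149 to 1.17 points at starts, -0.0331 to 1.10 at ends, -0.245 to 0.344 over bodies and -0.307 to 0.115 over loci. The directions turned without mAdu replicate 2 at starts, without mAdu replicate 3 at ends, without aged replicate 3 or mAdu replicate 3 over bodies, and without aged replicate 2 or mAdu replicate 1 over loci. They also turned over bodies with at least 10 windows (-0.0596 points), without extreme values (-0.0454 points) and on the logit scale, and over loci with centred samples (0.0380 points) and with the median over windows. The differences of 3 genes reversed: with the median over windows the bodies of Cd48 (1.09 points) and Cd3g (1.25 points), and with 2000 bp on either side the locus of Cd52 (-1.15 points). Other differences moved by over 1.5 times in the same direction: at the end of the start Gzmb had 0.490 points, and with 2000 bp outside the ends of Itgb2 and Vav1 had 1.96 and 2.12 points. With the median over windows the body of Cd4 had 3.12 points and the loci of Gzmb, Cd48, Cd52 and Rac2 had 1.20, -0.698, 2.77 and 1.95 points, and the locus of Rac2 had 0.777 points with 2000 bp on either side.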
